A study of Mus musculus with 32 samples.

Results

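The samples described here are 8 brain libraries of the albino mouse strain B6(CG)Tyr(c-2J)/J, 4 with almost no Hoxb3 transcript and 4 with Hoxb3 transcript, out of 32 libraries in all. They were chosen from the raw counts. Albino libraries with more than 1000 CPM (counts per 1000000 counts in the library) of Snap25, a neuronal synaptic gene, were kept and were split at a Hoxb3 level of 1 CPM. The Hoxb3-low side holds the libraries labelled oculomotor neurons (CN3) 1 and 2 and extraocular muscle (EOM) 1 and 2. The Hoxb3-high side holds the libraries labelled abducens motor neurons (CN6) 1 and 2 and tibialis anterior muscle (TA) 1 and 2. The strain is unpigmented because of the c-2J allele of Tyr, the tyrosinase gene, and the series concerns its nystagmus, an involuntary movement of the eyes. The pigmented comparison is C57BL/6, with 4 CN3 and 4 CN6 libraries that the rule did not use. RNA was extracted with an RNeasy kit for fibrous or for lipid tissue, per the labels' protocol. The labels name no other allele, treatment, age or sex, and do not say that libraries came from separate animals, so p-values measure the spread between these libraries.

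The oculomotor nucleus lies in the midbrain and drives most of the eye muscles, and the abducens nucleus lies in the hindbrain and drives the lateral rectus muscle. Both are made of cholinergic motor neurons. During development the hindbrain is patterned by Hox genes, which are off in the midbrain, where Otx2 and other transcription factors act instead. Both nuclei have close neighbours of other kinds: the Edinger-Westphal peptide neurons, dopamine neurons and serotonin neurons of the midbrain, and noradrenaline, glycine and relaxin-3 neurons of the pons. The libraries are bulk tissue, so fewer cells of a type and less RNA per cell cannot be told apart.

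Hoxb3, the gene of the rule, was at 0, 0.191, 0 and 0.0579 CPM in CN3 1, CN3 2, EOM 1 and EOM 2, against 2.61, 20.8, 21.3 and 11.6 CPM in CN6 1, CN6 2, TA 1 and TA 2; every list of 4 albino values below keeps this order. The library nearest the limit from below was CN3 2 and the nearest from above was CN6 1. C57BL/6 had 0.053 to 0.271 CPM in CN3 and 23 to 31.4 CPM in CN6. Snap25 was at 2495, 2487, 2509 and 2447 CPM on the Hoxb3-low side and 2562, 3492, 3221 and 2879 CPM on the Hoxb3-high side, and no more than 56.9 CPM in the 8 albino libraries left out. The muscle labels of EOM 1, EOM 2, TA 1 and TA 2 are not borne out by their transcripts: Ckm, the muscle creatine kinase, stayed at or below 0.306 CPM in the 8 libraries and reached 14900 CPM in the 8 left out. Those left out include the libraries labelled albino CN3 3, CN3 4, CN6 3 and CN6 4. These had Ckm at 5462, 5320, 13330 and 13010 CPM and Snap25 at 8.97, 12.7, 0 and 3.7 CPM, so their nucleus labels are not borne out either. The 15 muscle markers summed to 112 to 133 CPM on the Hoxb3-low side and 181 to 242 CPM on the Hoxb3-high side, most of it from Pvalb, which neurons also express. Library totals were 28261869 to 34550801 counts in the 8 libraries and 30694749 to 44254021 counts in the 8 C57BL/6 libraries.

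Several libraries carried genes of neighbouring tissue. TA 1 held 13400 CPM of 18 pituitary and choroid plexus markers, against 456 to 574 CPM on the Hoxb3-low side and 500.3 to 596 CPM in the other 3 Hoxb3-high libraries. EOM 1 held 714 CPM of 16 cerebellar markers, and TA 1 held 375 CPM, while the other 6 held 161 to 365 CPM. EOM 2 held 1547 CPM of 16 thalamic and collicular markers, against 653 to 817 CPM in the other 3 Hoxb3-low libraries and 460 to 587 CPM on the Hoxb3-high side. CN6 1 had the lowest summed Hox level of its side, with Hoxb3 in the sum, 8.5 CPM against 36.3 to 83 CPM in the other 3. C57BL/6 libraries varied too. CN3 1 held 1450 CPM of the thalamic and collicular markers, against 654.5 to 711.7 CPM in CN3 2, CN3 3 and CN3 4. Pituitary and choroid plexus markers summed to 1169 CPM in C57BL/6 CN3 2 and 1107 CPM in CN6 2, and to 539.5 to 923.1 CPM in the rest. Gh, a pituitary gene, was at 5.02, 362, 119.6 and 37.3 CPM in C57BL/6 CN3 and 7.9, 279.9, 11.7 and 6.75 CPM in CN6. The part of these tissues in the results was not tested.

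Because Hoxb3 in these same libraries made the split, the difference between the 2 sides is given as values and a log2 fold change with its standard error, Hoxb3-low over Hoxb3-high, with no test. Of 16391 genes with enough counts, 298 (1.82%) differed at least 2-fold with no overlap between the 4 libraries of each side. Of these, 111 (0.677%) were higher and 187 (1.14%) were lower on the Hoxb3-low side. At any size, 2577 genes (15.7%) did not overlap, 1167 (7.12%) higher and 1410 (8.6%) lower. Without CN6 1 the 2-fold count was 538, without CN3 2 it was 457, and without EOM 1, CN6 1 and TA 1 together it was 644. Fewer libraries make it easier for the sides not to overlap, and each of the 8 counts with 1 library left out (328 to 538) was above 298.

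The difference between libraries with the same CN3 and CN6 labels was tested in C57BL/6 with 4 CN3 and 4 CN6 libraries and edgeR's quasi-likelihood test. Of 16004 genes, 4252 (26.6%) were called at an adjusted p under 0.05, 2098 (13.1%) higher and 2154 (13.5%) lower in CN3, and 6203 (38.8%) had an unadjusted p under 0.05. Without CN6 4 the count was 2826 and without CN6 3 it was 2850. The 298 albino genes included 271 that were tested in C57BL/6, and 217 of these (80.1%) were called there in the same direction, 0 in the other direction and 54 were not called. In the opposite reading, 217 of the 4248 called C57BL/6 genes tested in albino (5.11%) were 2-fold apart without overlap in albino, and 4164 (98%) had the same sign. Among 663 genes called at least 2-fold in C57BL/6, 606 (91.4%) had a smaller difference in albino, with a median ratio of the log2 differences of 0.62; these genes were chosen by their C57BL/6 difference, which favours larger values there.

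**Figure D1:**
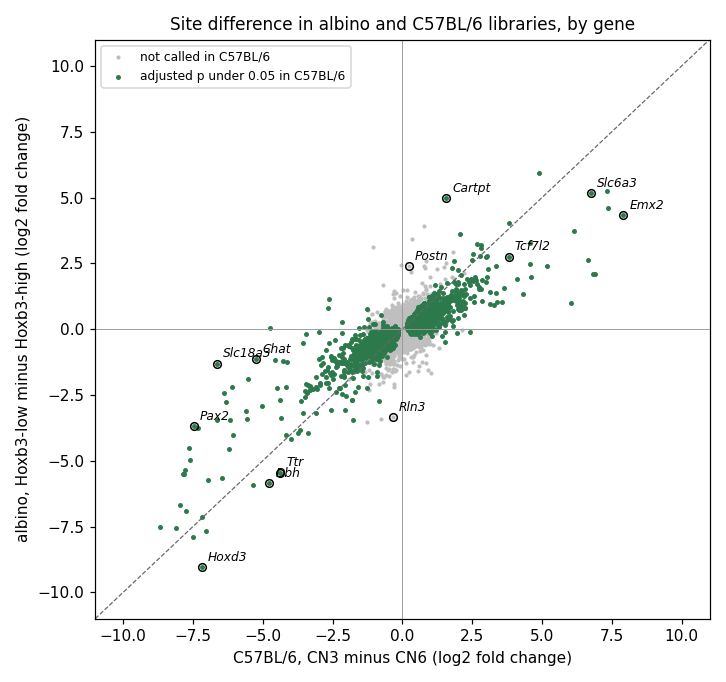
Each point is a gene, with the C57BL/6 CN3 minus CN6 log2 fold change on the x axis and the albino Hoxb3-low minus Hoxb3-high log2 fold change on the y axis; green genes were called in C57BL/6 and the dashed line marks equal differences. Of 663 green genes at least 2-fold apart in C57BL/6, 606 had a smaller difference in albino; Cartpt at 4.97 in albino and 1.56 in C57BL/6 lies off the line the other way.

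Over 648 of those genes, with Hox genes left out, each library was placed on a scale where 0 is the mean of C57BL/6 CN6 and 1 the mean of C57BL/6 CN3. The median position was 0.92, 0.62, 0.83 and 0.86 in the Hoxb3-low libraries and 0.44, 0.01, 0.03 and 0.22 in the Hoxb3-high libraries. CN3 2 and CN6 1 thus lay nearest to each other, and the order of the 8 libraries still separated the sides.

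Groups were next set by the submitters' labels within the 8 libraries that the Snap25 level kept, 2 libraries against 2. For albino CN3 against CN6, 1 gene of 16391 (0.0061%) was called, and 1 (0.0061%) for the brain-like libraries labelled albino EOM against TA. In both it was Cartpt. At an unadjusted p under 0.05 there were 1281 (7.82%) and 2915 (17.8%) genes, and the DESeq2 Wald test called 95 and 623. These labels coincide with the Hoxb3 split, and the libraries are those the rule read.

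Hox genes, the transcription factors of hindbrain identity, were lower on the Hoxb3-low side. Leaving out Hoxb3, 13 of 25 Hox genes had enough counts, and 11 were lower on the Hoxb3-low side by at least 2-fold without overlap; Hoxb5 and Hoxd1 overlapped. The 12 other genes of the list stayed at or below 0.425 CPM. In C57BL/6 all 13 tested genes fell in CN3. Hoxd1 was not called without CN6 4 (adjusted p = 0.0539, edgeR) or without CN3 2, CN3 3 and CN6 2 (adjusted p = 0.103, edgeR). The shares over all genes were 1.14% lower by 2-fold without overlap in albino and 13.5% lower in C57BL/6 CN3. The rule chose the sides by a gene of this family, so the albino counts are a description. Most of these genes were at or near 0 CPM on the Hoxb3-low side and in C57BL/6 CN3. Such genes passed the count filter through the other group, so the direction of both counts was largely set by that filter.

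Hoxd3 (chromosome 2, 74711927 to 74748442 on GRCm38, the assembly of mm10) was at 0, 0.127, 0 and 0 CPM on the Hoxb3-low side and 0.88, 14.3, 13.3 and 5.92 CPM on the Hoxb3-high side. C57BL/6 had 0.0652, 0.203, 0 and 0.176 CPM in CN3, against 14, 19, 19.1 and 14.9 CPM in CN6 (edgeR adjusted p = 1.11e-06). Within the Hoxb3-high side, CN6 1 stood far below the other 3. Hoxa4 was at 0, 0.191, 0 and 0 CPM against 0.912, 5.08, 7.29 and 3.47 CPM, Hoxb2 at 0, 0.191, 0 and 0 CPM against 0.782, 6.34, 4.85 and 2.65 CPM and Hoxa2 at 0, 0.318, 0 and 0.0579 CPM against 0.652, 5.02, 4.49 and 3.54 CPM. Hoxa3 at 0.261, 3.62, 3.43 and 1.77 CPM and Hoxc4 at 0.261, 4.27, 5.91 and 1.91 CPM on the Hoxb3-high side were also lowest in CN6 1. On the Hoxb3-low side CN3 2 had the highest value of Hoxa2, Hoxa3, Hoxa4, Hoxb2, Hoxc4 and Hoxd3.

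Hoxb5 (named, with Hoxa5 and Hoxb4, after its values were seen) was at 0.0645, 0.318, 0 and 0 CPM on the Hoxb3-low side and 0.0652, 0.956, 4.85 and 1.19 CPM on the Hoxb3-high side, so that CN6 1 lay within the Hoxb3-low range. Hoxa5 was at 0, 0.318, 0 and 0 CPM against 0.326, 1.23, 4.32 and 0.408 CPM, and Hoxb4 at 0.0645, 0.0635, 0.0624 and 0.116 CPM against 0.196, 1.25, 3.89 and 0.613 CPM. For all 3 genes TA 1 was the highest of the 8 libraries. C57BL/6 CN6 had Hoxb5 at 5.08, 24.6, 9.03 and 1.76 CPM and Hoxa5 at 3.39, 16.3, 6.6 and 1.53 CPM.

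Other hindbrain transcription factors were lower on the Hoxb3-low side too: 10 of 23 tested list genes by 2-fold without overlap, and 1 was higher. In C57BL/6 12 of 21 fell in CN3 and 1 rose. Over all genes 1.14% were lower and 0.677% higher by 2-fold without overlap in albino, and 13.5% fell and 13.1% rose in C57BL/6. The median log2 fold change of the list was −1.23 in albino and −0.61 in C57BL/6, against 0.00 over all genes in both. Pax2, a paired-box factor of the midbrain-hindbrain boundary and of inhibitory hindbrain neurons, was at 0.387, 1.84, 1.28 and 0.289 CPM against 4.69, 17.5, 15 and 10.3 CPM (log2 fold change −3.68 ± 0.65). C57BL/6 had 0 to 0.226 CPM in CN3 and 15.8 to 21.6 CPM in CN6 (adjusted p = 1.00e-06, edgeR). Albino Hoxb3-low values of Pax2 were thus higher than all 4 of C57BL/6 CN3.

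Pax8, another paired-box factor of the hindbrain, was at 1.87, 2.57, 3.93 and 0.289 CPM against 4.27, 17.9, 15.3 and 8.85 CPM, with EOM 1 and CN6 1 close to each other. Meis1, a cofactor of Hox proteins that the midbrain and forebrain list holds, was at 13.4, 13.6, 14 and 8.71 CPM against 25.2, 39.8, 33.6 and 29.6 CPM (−1.39 ± 0.19), and fell in C57BL/6 CN3 (−1.87 ± 0.09, adjusted p = 1.12e-06, edgeR).

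**Figure D2:**
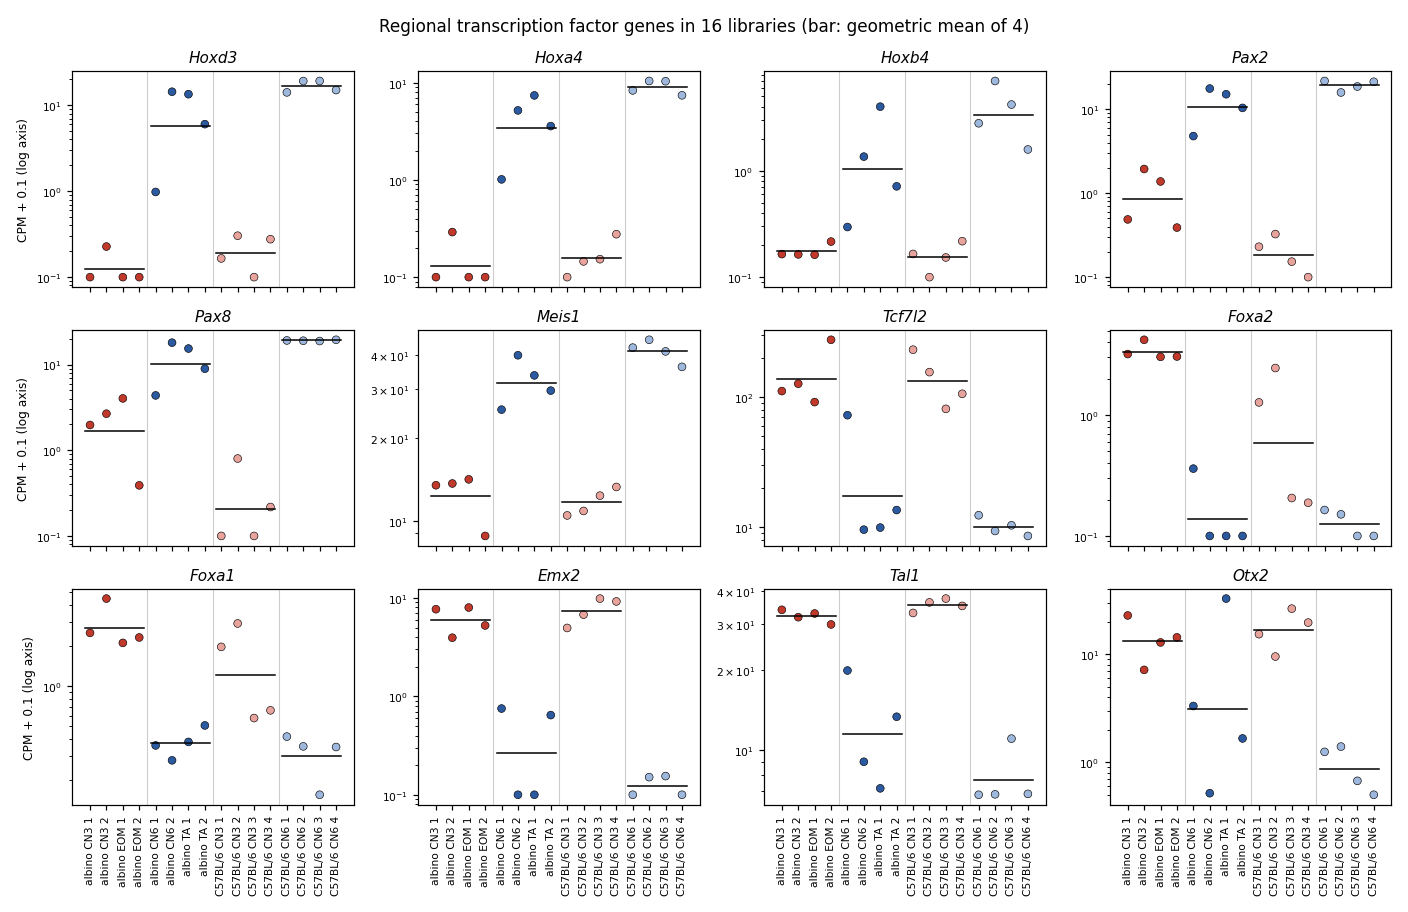
CPM plus 0.1 on a log axis in the 16 libraries, 1 panel per gene, with the 4 Hoxb3-low albino libraries in red, the 4 Hoxb3-high in blue, C57BL/6 CN3 in pale red and CN6 in pale blue, and bars at the geometric mean of 4. The Hox genes, Pax2 and Pax8 are low in red and high in blue apart from a low CN6 1, and Otx2 is high in TA 1.

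Of 43 tested midbrain and forebrain transcription factors, 14 were higher and 3 lower on the Hoxb3-low side by 2-fold without overlap. In C57BL/6 24 of 40 rose and 4 fell in CN3. The shares over all genes were 0.677% and 1.14% in albino, and 13.1% and 13.5% in C57BL/6. The list's median was 0.67 in albino and 0.67 in C57BL/6. Otx2, a homeodomain factor of the midbrain and forebrain, was at 22.8, 7.08, 12.8 and 14.3 CPM on the Hoxb3-low side and 3.23, 0.418, 32.7 and 1.57 CPM on the Hoxb3-high side. The sides overlapped through TA 1, the library with the choroid plexus markers, a tissue that also expresses Otx2. The log2 fold change was 1.35 ± 0.88 with TA 1 and 3.07 without it. In C57BL/6 Otx2 rose in CN3 (15.3, 9.45, 26.4 and 19.6 CPM, against 1.15, 1.3, 0.575 and 0.402 CPM in CN6, adjusted p = 3.65e-05, edgeR).

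Foxa2, a forkhead factor of the ventral midbrain and of its dopamine neurons, was at 3.1, 4.1, 2.93 and 2.95 CPM on the Hoxb3-low side. It was at 0.261, 0, 0 and 0 CPM on the Hoxb3-high side, so that transcript was found in CN6 1 alone of these. Its relative Foxa1 was at 2.39, 4.38, 2 and 2.2 CPM against 0.261, 0.179, 0.283 and 0.408 CPM (3.25 ± 0.31). Both varied in C57BL/6 CN3, Foxa2 at 1.17, 2.35, 0.106 and 0.0882 CPM and Foxa1 at 1.86, 2.83, 0.477 and 0.559 CPM; Foxa2 had too few counts to be tested there, and Foxa1 rose (2.67 ± 0.65, adjusted p = 0.0121, edgeR).

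Emx2, a homeodomain factor of the forebrain, was at 7.58, 3.84, 7.89 and 5.15 CPM against 0.652, 0, 0 and 0.545 CPM, and Nr2e1, an orphan nuclear receptor, at 5.42, 3.05, 3.34 and 5.5 CPM against 0.782, 0.0598, 0.141 and 0 CPM. Both rose in C57BL/6 CN3, with adjusted p-values of 3.20e-06 and 3.20e-06 (edgeR). Barhl2, a factor of diencephalic and collicular neurons, was at 8.81, 1.27, 8.2 and 2.92 CPM against 0.554, 0.239, 1.2 and 0.272 CPM. The gap between CN3 2 and TA 1 was small for this gene.

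Tcf7l2, the Wnt effector that marks thalamus and colliculus, was at 111, 127, 91.5 and 276 CPM against 72.5, 9.44, 9.8 and 13.4 CPM. The highest value was in EOM 2, the library with the highest thalamic marker sum, and CN6 1 stood above the other 3 Hoxb3-high libraries. In C57BL/6 it rose in CN3 (232, 156, 81.1 and 106 CPM, against 12.2, 9.23, 10.2 and 8.44 CPM in CN6, adjusted p = 2.21e-05, edgeR). Lhx9, another thalamic and collicular factor, overlapped in albino, at 55.1, 17.9, 34.1 and 37.5 CPM against 32.8, 2.27, 2.33 and 8.14 CPM, again through CN6 1. Tal1 and Gata3, factors of inhibitory midbrain neurons, did not overlap between the sides. Tal1 was at 33.8, 31.7, 32.8 and 29.8 CPM against 19.9, 8.91, 7.04 and 13.2 CPM, and Gata3 at 21, 19.4, 23.6 and 17.9 CPM against 12.4, 4, 4.67 and 7.69 CPM. Foxp2, a forkhead factor of many motor-related neurons, was at 66.1, 47.2, 44.4 and 68.6 CPM against 33.5, 8.94, 7.32 and 14 CPM (1.91 ± 0.41). These 3 rose in C57BL/6 CN3 as well, at adjusted p-values of 1.27e-05, 1.24e-04 and 2.94e-06 (edgeR).

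Cartpt and Ucn, peptide genes of the Edinger-Westphal nucleus, were higher on the Hoxb3-low side. Cartpt encodes the CART peptide, and Ucn encodes urocortin, a ligand of the corticotropin-releasing hormone receptors. In the mouse both mark the centrally projecting Edinger-Westphal neurons that lie against the oculomotor nucleus. Their upstream sequences are shown because both hold TGACGTCA, the cyclic AMP response element that CREB proteins bind. The letters come from RefSeq on GRCm38.p6, read 5′ to 3′ on the gene's strand, with the element in capitals. The first is 30 bases around the match, at chr13:99900777-99900806 on the minus strand, whose match starts 112 bases before the RefSeq start and which GENCODE places in the 5′ UTR of another Cartpt transcript. The second is the 250 bases before the RefSeq start of Ucn, chr5:31138896-31139145 on the minus strand, with the match starting 44 bases before it.
Cartpt: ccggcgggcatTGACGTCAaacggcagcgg
Ucn: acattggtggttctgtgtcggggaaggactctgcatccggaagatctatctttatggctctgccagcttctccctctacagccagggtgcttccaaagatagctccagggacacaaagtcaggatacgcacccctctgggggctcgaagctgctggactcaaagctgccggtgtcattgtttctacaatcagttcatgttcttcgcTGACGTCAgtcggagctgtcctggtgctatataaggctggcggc

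TGACGTCA reads the same on both strands. It occurs in 508 of 32851 RefSeq windows of the same length (1.55%), in 6 of 103 windows of the 2-fold higher genes (5.83%) and in 2 of 151 of the 2-fold lower genes (1.32%). Nr2e1 is among the 6. Symbols of 80 higher and 127 lower genes were found in the table. The match describes these letters and was not tied to binding.

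Cartpt (chromosome 13, 99898489 to 99901091, GRCm38) was at 123, 129.7, 118 and 112 CPM on the Hoxb3-low side and 2.28, 5.02, 4.32 and 3.61 CPM on the Hoxb3-high side. All 4 Hoxb3-low libraries thus stood above 100 CPM and no Hoxb3-high library reached 6 CPM, and the log2 fold change was 4.97 ± 0.21. By label within the 8 kept libraries, the log2 difference was 5.09 ± 0.30 for CN3 against CN6 (adjusted p = 0.00427, edgeR) and 4.84 ± 0.30 for EOM against TA (adjusted p = 0.00595, edgeR). The first call was lost in a fit of only those 4 libraries (adjusted p = 0.0585) and the second without TA 1 (adjusted p = 0.192), with differences of 5.09 and 4.98 (edgeR).

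In C57BL/6 Cartpt was at 9.35, 15.2, 23.8 and 33.7 CPM in CN3 and 6.65, 9.81, 5.09 and 5.37 CPM in CN6, a rise of 1.56 ± 0.34 (adjusted p = 0.00674, edgeR). The lowest C57BL/6 CN3 library lay below the highest CN6 library. The difference between the genotypes' site differences was 3.52 ± 0.58 and was not called (adjusted p = 0.067, edgeR). It was called without C57BL/6 CN3 1 (0.0277, edgeR adjusted p), without C57BL/6 CN3 4 (0.0313), with no filter (0.0315) and by the DESeq2 Wald test (0.000152), in a range over the alternatives up to 1.

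Ucn (chromosome 5, 31138063 to 31138829, GRCm38) was at 4.58, 3.84, 5.08 and 3.1 CPM on the Hoxb3-low side and 0, 0.179, 0 and 0.0681 CPM on the Hoxb3-high side. The Hoxb3-high libraries were all at or near 0. C57BL/6 had 0, 0.678, 0 and 0.706 CPM in CN3 and 0.384, 0, 0.0548 and 0 CPM in CN6, too few counts to be tested. Postn, a secreted matrix protein gene on the same list, was at 8.62, 10.3, 8.08 and 8.65 CPM against 1.3, 1.08, 3.25 and 1.53 CPM (2.39 ± 0.24). C57BL/6 libraries had 1.5, 3.19, 0.927 and 2.59 CPM in CN3, against 1.76, 1.81, 1.59 and 1.66 CPM in CN6, and Postn was not called (0.23 ± 0.33, adjusted p = 0.641, edgeR). For all 3 genes the 4 Hoxb3-low albino libraries were higher than any of the 12 other brain libraries. Postn was named after its values were seen.

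Rln3 ran the other way. It encodes relaxin-3, a peptide made mainly by the nucleus incertus of the pontine tegmentum. It was at 0.936, 2.06, 1.47 and 1.65 CPM on the Hoxb3-low side and 17.5, 15.5, 14.2 and 14.1 CPM on the Hoxb3-high side (−3.32 ± 0.22), with no overlap. In C57BL/6 the range was wider, at 5.7, 4.7, 0.556 and 2.88 CPM in CN3 and 11.1, 5.58, 0.164 and 0.477 CPM in CN6, and Rln3 was not called (−0.34 ± 0.94, adjusted p = 0.824, edgeR). By label, the albino differences were −3.46 ± 0.32 for CN3 against CN6 (adjusted p = 0.0577, edgeR) and −3.19 ± 0.32 for EOM against TA (adjusted p = 0.0651, edgeR), neither called. Over the alternatives the adjusted p of Rln3 ranged from 3.71e-25 to 0.434 and from 1.24e-21 to 0.379; with no filter on low counts it was 0.0134 and 0.0239 (edgeR). Rln3 was named after its values were seen.

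Over the whole list of 33 tested neuropeptide genes, 4 were higher and 7 lower by 2-fold without overlap, and the median was −0.04. In C57BL/6 6 of 31 rose and 10 fell. The shares over all genes were 0.677% and 1.14% in albino, and 13.1% and 13.5% in C57BL/6. Crh, the corticotropin-releasing hormone gene, was at 1.23, 2.67, 2.15 and 1.22 CPM against 4.92, 7.83, 9.09 and 7.83 CPM (−2.03 ± 0.31), and fell in C57BL/6 CN3 (−2.95 ± 0.28, adjusted p = 5.02e-05, edgeR). Nxph4, a neurexin ligand, was at 26.4, 24.9, 28.9 and 12.9 CPM against 53.7, 51.7, 43.6 and 51.4 CPM and also fell in C57BL/6 (adjusted p = 3.72e-05, edgeR). Tac1, the substance P precursor, rose in C57BL/6 CN3 (1.63 ± 0.14, adjusted p = 2.81e-05, edgeR), while the albino sides overlapped at 54.8, 21, 63.1 and 31.9 CPM and 34.1, 18.4, 17.6 and 27 CPM.

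**Figure D3:**
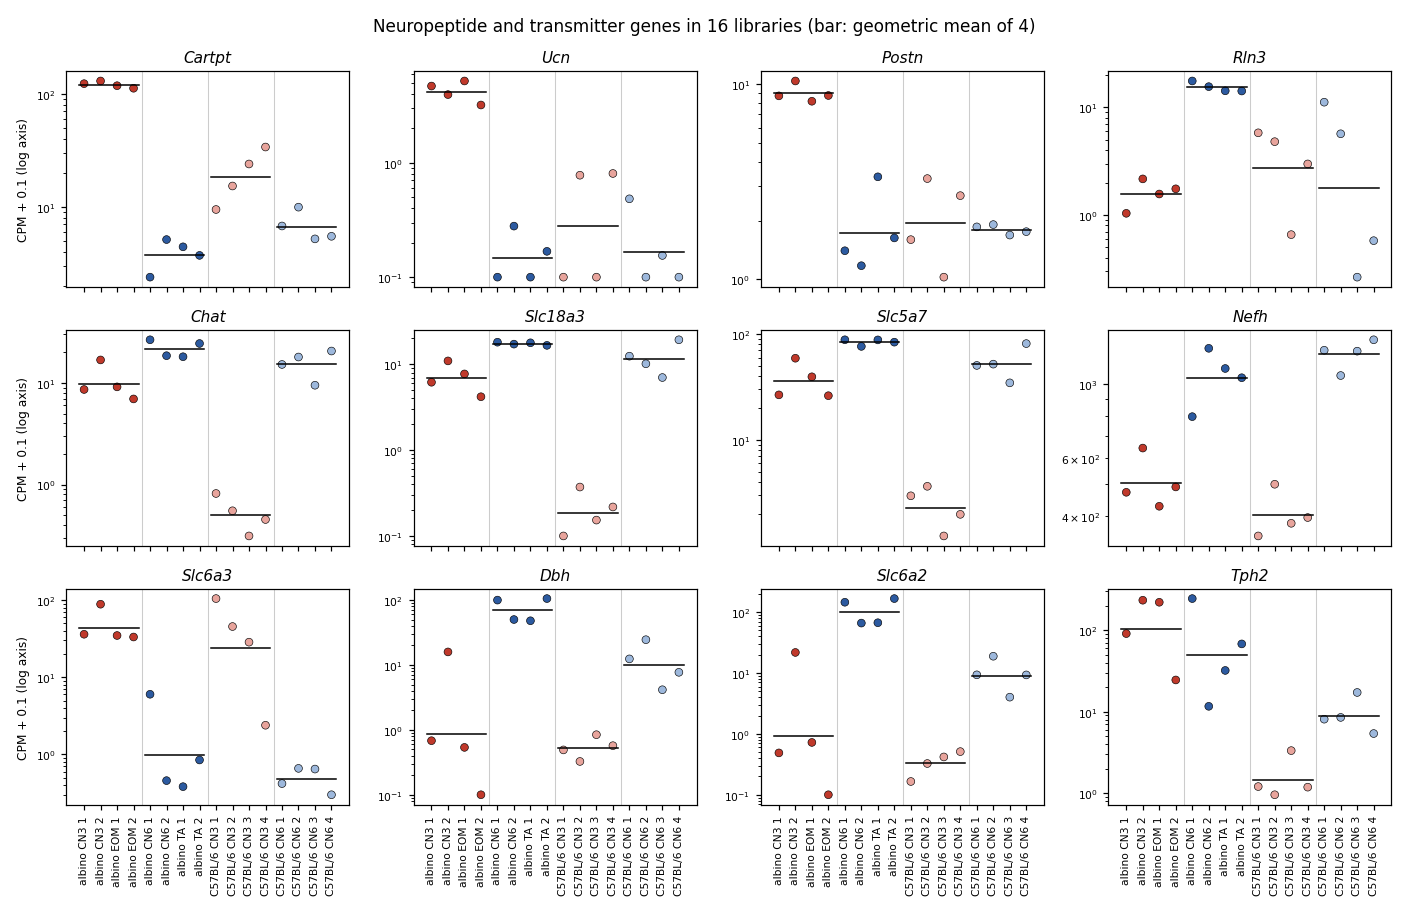
CPM plus 0.1 on a log axis in the 16 libraries for 12 peptide and transmitter genes, with colours and bars as for the regional genes. Cartpt, Ucn and Postn are higher in the 4 red libraries than in the other 12, Chat, Slc18a3 and Slc5a7 are at intermediate levels in red and lowest in C57BL/6 CN3, and Tph2 overlaps between red and blue.

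Most tested genes of the cholinergic motor neuron list were lower on the Hoxb3-low side. Not every gene of the list is particular to these neurons. Nefh was at 349 to 500 CPM in C57BL/6 CN3, where Chat stayed at or below 0.717 CPM. Of 24 tested cholinergic motor neuron genes, 13 were lower on the Hoxb3-low side by 2-fold without overlap, 19 did not overlap at any size, and 0 were higher without overlap. In C57BL/6 21 of 24 fell in CN3 and 0 rose. Over all genes 1.14% were lower by 2-fold without overlap and 8.6% lower without overlap at any size, and 13.5% fell in C57BL/6. The median was −1.10 in albino and −1.65 in C57BL/6.

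Chat, choline acetyltransferase (chromosome 14, 32408203 to 32465989, GRCm38), was at 8.52, 16.7, 9.05 and 6.86 CPM on the Hoxb3-low side and 26.5, 18.4, 18 and 24.3 CPM on the Hoxb3-high side (−1.13 ± 0.24). C57BL/6 libraries had 0.717, 0.452, 0.212 and 0.353 CPM in CN3 and 15.1, 17.9, 9.39 and 20.5 CPM in CN6 (−5.24 ± 0.33, adjusted p = 4.43e-06, edgeR). The C57BL/6 libraries labelled oculomotor neurons thus held almost no Chat transcript, while the 8 albino libraries held 6.86 to 26.5 CPM. Slc18a3, the vesicular acetylcholine transporter, was at 6.07, 10.8, 7.61 and 4.08 CPM against 17.9, 17, 17.7 and 16.5 CPM, with 0, 0.271, 0.053 and 0.118 CPM in C57BL/6 CN3 and 6.9 to 19.2 CPM in C57BL/6 CN6. Slc18a3 (32462438 to 32464850) lies inside Chat on the same strand, so the reads of these 2 genes may be shared.

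Chat and Slc18a3 were the only genes called when the albino CN3 minus CN6 difference was tested against that of C57BL/6, 2 of 16726 (0.012%). The difference was 4.39 ± 0.53 for Chat (adjusted p = 0.0108, edgeR) and 5.58 ± 0.72 for Slc18a3 (adjusted p = 0.0138, edgeR). The C57BL/6 CN3 values of Slc18a3 are at or near 0, so its fitted size is not a bound. How much of the nucleus each dissection held is not given in the labels, so dissection and genotype cannot be told apart in these values. At an unadjusted p under 0.05 there were 840 genes (5.02%). Neither was called by limma voom (adjusted p = 0.368 and 0.838), nor without CN3 2, CN6 1 or CN6 2 of the albino libraries (adjusted p from 0.0639 to 0.183, edgeR); Slc18a3 was also not called without C57BL/6 CN3 3 (adjusted p = 0.0638, edgeR). Slc5a7, the choline transporter, had 26.6, 59, 39.4 and 26.1 CPM on the Hoxb3-low side and 88.2, 76.4, 88 and 83.8 CPM on the Hoxb3-high side, with 1.14 to 3.55 CPM in C57BL/6 CN3 and 34.5 to 81.2 CPM in C57BL/6 CN6. Its difference between genotypes was 3.60 ± 0.55 and was not called (adjusted p = 0.0581, edgeR).

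Further motor neuron genes were also lower on the Hoxb3-low side. Prph, the peripherin filament gene, was at 9.87, 11.3, 11.5 and 6.8 CPM against 24.3, 28.9, 25.6 and 20.8 CPM (−1.35 ± 0.17), and Chodl, a marker of fast motor neurons, at 4.45, 7.72, 4.9 and 4.63 CPM against 18.3, 15.9, 18.8 and 16.8 CPM (−1.70 ± 0.17). Tbx20, a T-box factor of cranial motor neurons, was at 0.129, 1.59, 0.187 and 0.289 CPM against 2.57, 1.61, 1.7 and 2.38 CPM, with CN3 2 just below the lowest Hoxb3-high library. Nefh, the heavy neurofilament gene of large axons, was at 473, 642, 429 and 491 CPM against 798, 1281, 1114 and 1045 CPM (−1.08 ± 0.17). All 4 fell in C57BL/6 CN3, with adjusted p-values of 1.48e-05, 3.10e-04, 4.35e-04 and 1.25e-05 (edgeR).

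Dbh and Slc6a2, noradrenaline neuron genes, were lower on the Hoxb3-low side, and Slc6a3, a dopamine neuron gene, was higher. Dbh, which makes noradrenaline from dopamine (chromosome 2, 27165233 to 27183200, GRCm38), was at 0.581, 15.8, 0.437 and 0 CPM on the Hoxb3-low side and 99.8, 50.1, 47.9 and 105 CPM on the Hoxb3-high side (−5.84 ± 0.96). Slc6a2, the noradrenaline transporter, was at 0.387, 21.7, 0.624 and 0 CPM against 146, 66.1, 67 and 167 CPM (−5.93 ± 1.06). In both genes CN3 2 was the one high library of its side, and CN6 1 and TA 2 stood above CN6 2 and TA 1. In C57BL/6 Dbh was at 0.391, 0.226, 0.742 and 0.47 CPM in CN3 and 12.3, 24.4, 4.05 and 7.61 CPM in CN6 (adjusted p = 2.30e-04, edgeR), and Slc6a2 at 0.0652 to 0.412 CPM in CN3 and 3.92 to 18.8 CPM in CN6 (adjusted p = 7.07e-05, edgeR). The Hoxb3-high albino values of both genes were above every C57BL/6 CN6 value. Phox2a, a homeodomain factor that noradrenaline neurons need and that the hindbrain and cholinergic lists also hold, was at 0.0645, 0.381, 0.0624 and 0 CPM against 2.05, 1.55, 1.13 and 3.27 CPM. Of 10 tested noradrenergic genes, 5 were lower by 2-fold without overlap and 0 were higher, and in C57BL/6 5 fell and 1 rose in CN3. Over all genes the shares were 1.14% and 0.677% in albino, and 13.5% and 13.1% in C57BL/6.

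Slc6a3, the dopamine transporter, was at 36, 88.4, 34.7 and 33.2 CPM on the Hoxb3-low side and 5.93, 0.359, 0.283 and 0.749 CPM on the Hoxb3-high side (5.17 ± 0.70). CN3 2 was highest of the first and CN6 1 of the second. C57BL/6 libraries had 105, 45.4, 28.4 and 2.29 CPM in CN3 and 0.32, 0.561, 0.547 and 0.201 CPM in CN6 (6.74 ± 1.04, adjusted p = 0.00104, edgeR; 0.154 with limma voom). Th, tyrosine hydroxylase, which dopamine and noradrenaline neurons share, overlapped at 32.9, 61.1, 27.3 and 20.8 CPM and 41.5, 18.4, 20.1 and 37.3 CPM. Of 14 tested dopaminergic genes, 3 were higher by 2-fold without overlap and 0 lower, and in C57BL/6 5 of 13 rose and 1 fell in CN3. The shares over all genes were 0.677% and 1.14% in albino, and 13.1% and 13.5% in C57BL/6.

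Serotonin genes varied within both sides. Tph2, the neuronal tryptophan hydroxylase, was at 90.6, 233, 219.6 and 24.4 CPM on the Hoxb3-low side and 244, 11.5, 31.9 and 67.7 CPM on the Hoxb3-high side, so that the sides overlapped. Slc6a4, the serotonin transporter, was at 56.5, 129, 143 and 14.2 CPM and 130.3, 4.72, 15.3 and 28.5 CPM, and Fev, the transcription factor of serotonin neurons, at 2.03, 4.83, 5.15 and 0.752 CPM and 4.82, 0.418, 0.991 and 1.57 CPM. In each of these 3 genes CN3 2, EOM 1 and CN6 1 were the 3 highest libraries. In C57BL/6 Tph2 was at 1.11, 0.859, 3.23 and 1.09 CPM in CN3 and 8, 8.41, 17.1 and 5.3 CPM in CN6 (−2.67 ± 0.46, adjusted p = 0.00185, edgeR; 0.056 with all 16 brain libraries in 1 fit). Of 18 serotonergic genes, 1 (Gata3) was higher by 2-fold without overlap in albino and 0 were lower, and 2 rose and 4 fell in C57BL/6 CN3. The shares over all genes were 0.677% and 1.14% in albino, and 13.1% and 13.5% in C57BL/6.

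**Figure D4:**
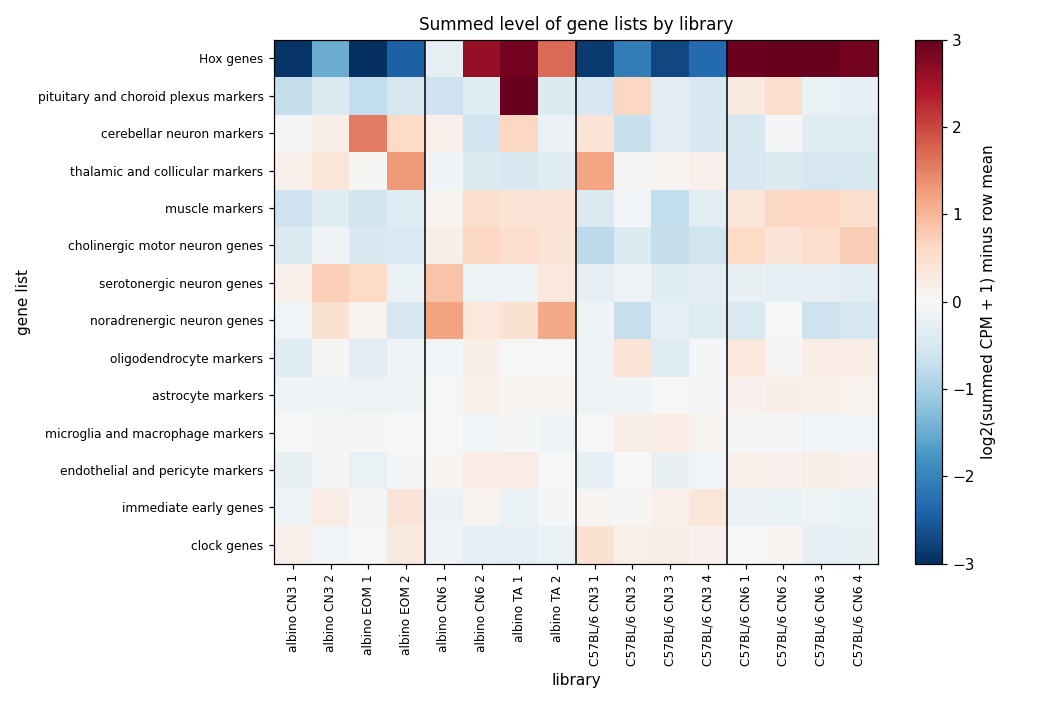
Summed CPM of 14 gene lists in the 16 libraries, as log2 of the sum plus 1 minus the mean of the 16 libraries, with colours that end at −3 and 3. The Hox row includes Hoxb3, the gene that made the split, so its difference between the sides was set in advance. TA 1 stands out for choroid plexus, EOM 1 for cerebellar and EOM 2 for thalamic markers, and the glial rows vary little.

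Of 27 tested glycinergic and GABAergic genes, 8 were higher and 4 lower without overlap, 2 and 2 of them by 2-fold; in C57BL/6 12 of 26 rose and 6 fell in CN3. Slc6a5, the neuronal glycine transporter, was at 4.07, 20.4, 8.89 and 2.81 CPM on the Hoxb3-low side and 32.7, 128, 120.3 and 83.3 CPM on the Hoxb3-high side (−3.43 ± 0.65), and fell in C57BL/6 CN3 (0.318 to 5.63 CPM, against 121 to 153 CPM in CN6, adjusted p = 4.68e-05, edgeR). Of 28 glutamatergic genes, 9 were higher and 2 lower without overlap, and 15 rose and 4 fell in C57BL/6 CN3. Over all genes 7.12% were higher and 8.6% lower without overlap, and 13.1% rose and 13.5% fell in C57BL/6. At 2-fold without overlap the shares were 0.677% and 1.14%.

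Of 53 tested potassium and sodium channel genes, 12 were higher and 14 lower without overlap, but only 1 by 2-fold, a lower one. In C57BL/6 17 rose and 17 fell in CN3. The shares over all genes were 7.12% higher and 8.6% lower without overlap, and 13.1% and 13.5% in C57BL/6. Kcnh2, an ERG potassium channel, was at 73.1 to 89.96 CPM against 107 to 137 CPM (−0.55 ± 0.09), and Kcnk1, a leak channel, at 76.6, 84.2, 79.6 and 84 CPM against 94.9, 118, 131 and 113 CPM. Both fell in C57BL/6 CN3, with adjusted p-values of 4.02e-05 and 4.02e-05 (edgeR). Kcna1, the Kv1.1 channel of fast-firing neurons, was at 361, 457, 385 and 399 CPM against 472, 781, 704 and 594 CPM. Kcnf1, of the same list, went the other way. It rose in C57BL/6 CN3 (1.65 ± 0.15, adjusted p = 5.09e-05, edgeR). In albino the sides overlapped for Kcnf1, at 23.3, 20.2, 15.8 and 29.9 CPM and 16.65, 8.73, 8.56 and 13.1 CPM (0.92 ± 0.27). The median of the list was 0.13 in albino and 0.01 in C57BL/6.

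Of 17 perineuronal net and calcium buffer genes, 6 were lower and 2 higher without overlap, and in C57BL/6 7 fell and 3 rose in CN3. Over all genes the shares were 8.6% and 7.12% in albino, and 13.5% and 13.1% in C57BL/6. Spp1, osteopontin, a secreted protein that fast motor neurons express, was at 79.9, 106, 58.4 and 72.1 CPM against 152, 244, 227 and 217 CPM (−1.44 ± 0.17). Pvalb, the calcium buffer parvalbumin, was at 94.7, 114, 90.9 and 104 CPM against 161, 231, 211 and 216 CPM (−1.03 ± 0.13). Both fell in C57BL/6 CN3 (adjusted p = 5.72e-05 and 1.44e-04, edgeR), and in both CN6 1 was the lowest Hoxb3-high library.

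Sema3a, a secreted semaphorin that is also held in perineuronal nets, was at 2.97, 7.97, 4.99 and 1.68 CPM on the Hoxb3-low side and 21.6, 39.2, 34.6 and 32.5 CPM on the Hoxb3-high side (−2.92 ± 0.41). The C57BL/6 values were 0.371 to 2.64 CPM in CN3 and 35 to 41.8 CPM in CN6 (adjusted p = 1.63e-05, edgeR). Sema3f rose in C57BL/6 CN3 (2.26 ± 0.14, adjusted p = 4.43e-06, edgeR), while the albino sides overlapped at 45, 17.3, 34.3 and 22.9 CPM and 27.4, 8.73, 12.1 and 11.9 CPM. Of the 38 genes of this list, 7 were higher and 5 lower without overlap, and in C57BL/6 14 rose and 8 fell. The shares over all genes were 7.12% and 8.6% in albino, and 13.1% and 13.5% in C57BL/6.

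Further genes differed by over 2-fold. Lamp5, a membrane protein gene of neurons on the cortical and hippocampal list, was at 30.9, 56.3, 36.5 and 24.4 CPM against 87.5, 370.2, 293 and 201 CPM (−2.72 ± 0.46) and fell in C57BL/6 CN3 (−3.64 ± 0.15, adjusted p = 4.39e-07, edgeR). Cyp26b1, an enzyme that degrades retinoic acid, was at 16.3, 17.3, 10.4 and 3.01 CPM against 37.5, 59.9, 47.3 and 42.4 CPM (−2.15 ± 0.33). It was 1 of the 2 among 17 tested retinoic acid genes that were lower by 2-fold without overlap, against 1.14% over all genes. On that list 3 genes were higher without overlap, 0 of them by 2-fold, and the median was −0.01. In C57BL/6 3 of 17 rose and 4 fell in CN3, against 13.1% and 13.5% over all genes. Gpx2, a glutathione peroxidase gene, was at 0.0645, 0.0635, 0.125 and 0.289 CPM against 0.717, 5.2, 2.83 and 2.42 CPM. Wif1, a secreted Wnt inhibitor, was at 2.13, 2.45, 2.06 and 3.07 CPM against 0.13, 0.0598, 1.31 and 0.272 CPM, and Cdh26, a cadherin, at 1.55, 1.08, 3.15 and 2.14 CPM against 0.261, 0, 0.212 and 0.136 CPM. In C57BL/6 Gpx2 fell (adjusted p = 6.64e-06, edgeR), Cdh26 rose (adjusted p = 0.0371, edgeR; 0.157 with limma voom, and 0.0553 to 0.0998 without CN3 1, CN3 4 or any 1 CN6 library) and Wif1 was not called (−1.06 ± 1.16, adjusted p = 0.541, edgeR), with 0.352, 12.3, 0.219 and 0 CPM in CN6; without C57BL/6 CN6 2 it rose by 3.05 (adjusted p = 0.00993). The antisense transcripts Emx2os, Hoxaas2 and Hotairm1 were also among the largest differences, but the counting strand is not given in the sources used here, so their reads cannot be told apart from those of their partners.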

How the data were processed

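The authors deposited raw read counts per gene symbol for 24421 genes in 32 libraries, with no normalization. Per the submitters' processing notes, the tools were HISAT2 2.1.0, Trimmomatic 0.33, featureCounts, FastQC and edgeR, and the build was mm10; the annotation and strand setting are not given in the sources used here. From the counts, CPM was computed relative to each library's total. Symbols in the form of a date number 27, with up to 0.309% of a library's counts. After filterByExpr and TMM scaling, edgeR 4.0.16 (R 4.3.3) gave quasi-likelihood tests with Benjamini-Hochberg adjustment at 0.05. The albino contrasts came from 1 fit of 8 libraries in 4 label groups, the C57BL/6 contrast from 8 libraries, and the difference between genotypes from 16. Standard errors come from the F statistic. Low counts limit the precision of values under 1 CPM. No pair of the 16 libraries agreed within sampling noise: the smallest chi-square per degree of freedom over 120 pairs was 6.04.

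The members and the 29 gene lists were chosen with earlier results of these data known. The text names genes from these sets: the 12 largest 4 against 4 differences per direction without overlap at a mean CPM of at least 1 (leaving out Hoxb3, gene-model and date-like symbols), up to 4 genes per list with the smallest C57BL/6 p, the genes called by label and between genotypes, and the markers. Others, such as Hoxa5, Hoxb4, Hoxb5, Postn, Rln3, Th, Fev, Slc6a4, Kcna1, Prph, Chodl, Tbx20, Tal1, Kl, Enpp2, Gabra6, Prkcd and Gh, were named after their values were seen. Some genes that the rule names are not reported here. Positions are from GENCODE vM21 on GRCm38, the assembly of mm10. Alternatives were DESeq2 1.42.0 size factors, upper quartile factors, no filter, CPM of at least 1 in 2 libraries, the DESeq2 Wald test, limma 3.58.1 voom, other sets of libraries in the fit, leaving out each library in turn and a replicate block. The fits were also run on simulated counts with the same dispersion for every gene, a simpler setting than these libraries. That run does not show how the fits behave on the real spread.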

Additional observations from a re-analysis of the deposited data

Results flagged for a closer look

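In groups of 4 libraries, 31 of 236 gene and group pairs had 1 library far from the other 3, where chance gives about 1 in 20; the genes were picked with such libraries in view. TA 1 stood apart from the other Hoxb3-high libraries for Otx2 (32.7 CPM), Ttr (7700.0 CPM), Kl (304 CPM) and Enpp2 (4857 CPM), genes the choroid plexus expresses. It also did so for Gabra6 (10.1 CPM), Cbln3 (26.3 CPM), Fat2 (16.6 CPM), Prkcd (30.8 CPM) and Wif1 (1.31 CPM). EOM 1 stood above the other Hoxb3-low libraries for the cerebellar granule cell genes Gabra6 (36.5 CPM), Cbln3 (88.9 CPM) and Fat2 (46.6 CPM), and EOM 2 was lowest of that side for Meis1 (8.71 CPM).

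CN3 2 was the highest Hoxb3-low library for Dbh (15.8 CPM), Slc6a2 (21.7 CPM), Slc6a3 (88.4 CPM), Foxa1 (4.38 CPM), Foxa2 (4.1 CPM), Tbx20 (1.59 CPM), Chodl (7.72 CPM) and Ttr (18.4 CPM). CN6 1 was the highest Hoxb3-high library for Tcf7l2 (72.5 CPM) and Slc6a3 (5.93 CPM).

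In C57BL/6 CN3, library 1 stood apart for Prkcd (298 CPM) and Nxph4 (9.32 CPM), library 2 for Slc6a5 (5.63 CPM) and library 3 for Tph2 (3.23 CPM). In C57BL/6 CN6, library 2 stood apart for Gh (279.9 CPM), Wif1 (12.3 CPM) and Slc6a5 (121 CPM), and library 3 for Tal1 (10.9 CPM).

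The albino and C57BL/6 site differences differed by 4.39 on the log2 scale for Chat and 5.58 for Slc18a3 (adjusted p = 0.0108 and 0.0138, edgeR).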

How the results depend on the processing

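The count of genes 2-fold apart without overlap between the albino sides was 215 to 393 under other scalings and filters, 328 to 538 with 1 library left out, and 644 without EOM 1, CN6 1 and TA 1, an alternative added after seeing the data; fewer libraries make it easier for the sides not to overlap. The C57BL/6 count was 3421 to 4908 under the other settings, and 2826 to 4724 with 1 library left out. For albino CN3 against CN6 by label, 5 genes were called with no filter, 95 by the DESeq2 Wald test, 2 by limma voom, 0 in a fit of the 4 CN libraries, 5 in a fit of 16 libraries and 1 to 2 with 1 library left out. For EOM against TA by label, the counts were 14 with no filter, 623 by DESeq2 and 0 to 119 with 1 library left out. The difference between genotypes was called for 6 genes with no filter, 4 with CPM of at least 1 in 2 libraries, 13 by DESeq2, 0 by limma voom and 0 to 5 with 1 library left out.

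The replicate numbers were not taken to pair the samples, since the labels give no shared source: same-numbered C57BL/6 CN3 and CN6 libraries had correlations of 0.033, −0.14, 0.118 and 0.065 between their deviations, and only numbers 3 and 4 correlated best with their own. In albino the correlation was 0.176 for CN3 and CN6 and 0.086 for EOM and TA. With 2 libraries per group, both pairs give the same value and the other number gives its negative. The albino values thus show only a positive sign and cannot decide on pairing. With a replicate block the counts were 1 for albino CN3 against CN6, 3421 for C57BL/6 and 2 for the difference between genotypes. With 1 C57BL/6 library left out, Prkcd ranged from −0.50 (without CN3 1) to 2.59 and Wif1 from −1.47 to 3.05 (without CN6 2), and Wif1 was 3.37 without the 3 libraries with pituitary transcripts; the cause was not tested.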

Other observations

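Glial and vascular lists had few or no genes past 2-fold without overlap. Over all genes only 0.677% were higher and 1.14% lower in this way, so lists of this size would hold few in any case. Of 16 astrocyte markers, 7 were lower and 1 higher on the Hoxb3-low side without overlap, 0 of them by 2-fold, and the list summed to 4346 to 4462 CPM there and 4753 to 5365 CPM on the Hoxb3-high side. Of 16 endothelial and pericyte markers, 9 were lower without overlap and 0 higher, 0 of them by 2-fold, and in C57BL/6 8 fell and 0 rose in CN3. Of 19 tested oligodendrocyte markers, 2 were lower and 0 higher without overlap. Of 18 microglia and macrophage markers, 2 were higher and 1 lower, the lower one by 2-fold. Oligodendrocyte precursor markers (1 higher and 0 lower of 10), ependymal markers (0 and 0 of 12) and meningeal and fibroblast markers (0 higher and 1 lower of 17) had few. Over all genes tested 7.12% were higher and 8.6% lower without overlap, and in C57BL/6 13.1% rose and 13.5% fell in CN3.

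Immediate early genes, which neuronal activity induces, had the following values. Of 19 tested, 4 were higher without overlap and 0 lower on the Hoxb3-low side, and in C57BL/6 7 rose and 0 fell in CN3. Egr1 was at 32.8, 45.4, 39.1 and 71.6 CPM on the Hoxb3-low side and 22.2, 30.7, 21.9 and 31.6 CPM on the Hoxb3-high side (0.80 ± 0.23), and rose in C57BL/6 CN3 (1.35 ± 0.15, adjusted p = 1.35e-04, edgeR). Of 19 clock genes, 2 were higher and 0 lower without overlap, and 5 rose and 0 fell in C57BL/6 CN3. For both lists, the shares over all genes were 7.12% and 8.6% in albino, and 13.1% and 13.5% in C57BL/6. The time of collection is not given in the labels.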
